A study of Mus musculus with 12 samples.

Results

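The data compare mouse induced pluripotent stem (iPS) cell clones 981E1, 981E4 and 981E5, in which Aid was disrupted (Aid-/-), with the clones 979B1, 979B3 and 979B4, in which Aid was intact (Aid+/+). These 6 clones of the 12 in the study were chosen because their arrays were the only ones of both genotypes that lay on 1 slide, and no expression value was used to choose them. Each clone is the progeny of 1 reprogrammed colony and was measured on 1 array. The names put the clones in 4 series of 3 that share a number and a letter: the Aid+/+ series 967B and 979B, the Aid-/- series 979F, and the Aid-/- series of 981E1, 981E4 and 981E5. Where no other clone is named, the Aid-/- clones means those of this slide, 981E1, 981E4 and 981E5, and their comparison with 979B is the same-slide pair. All 12 clones carried a Nanog-GFP reporter, were male and had a mixed background of the strains C57BL6, DBA and 129S4. The labels gave all of them as passage 6 cells, kept on gelatin in medium with LIF and puromycin. According to the methods of the study, clones of this kind were made from embryonic fibroblasts with retroviruses for Oct3/4, Sox2 and Klf4, used with or without c-Myc, which integrate at different places in each clone. The list of reprogramming experiments in the study has no entry for the number that 981E1, 981E4 and 981E5 bear, so it is uncertain from which experiment they came. Each genotype is here 1 clone series, so that genotype, fibroblast donor, reprogramming experiment and the strain segments that a series carries cannot be told apart. The 979B arrays took row 1, columns 1 to 3, of the slide, and the Aid-/- arrays row 1, column 4, and row 2, columns 1 and 2. Position on the slide therefore moved with the series as well.

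Aid is a cytidine deaminase that activated B cells use to mutate and recombine their immunoglobulin genes. Removal of the amino group from cytosine, or from a methylated cytosine, leaves a mismatched base that base excision repair can replace with an unmethylated cytosine. The enzyme was for this reason proposed to take part in the loss of DNA methylation when a somatic cell becomes pluripotent. The comparison asks which RNA levels differ between Aid-/- and Aid+/+ iPS cells when slide and scan are held the same.

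The arrays were 1-colour Agilent mouse arrays with 55681 non-control probes, of which all 6 arrays read 29636 well above background and none read 18540 so. Levels are given as log2 signal with the 75th percentile of the array at 0, and log2 differences are the mean of the Aid-/- clones minus that of 979B with their standard error (SE) from a limma fit to all 12 arrays. A probe was called at a Benjamini-Hochberg adjusted p under 0.05 over all probes and a fold difference over 2. Nothing in the labels says whether the clones of a series came from separate donors, so the p-values measure the spread between these clones. The spread was wider in the Aid-/- clones, with a median SD of 0.21 against 0.15 in 979B, over the 29636 probes. Within 979B, between 358 and 565 of these probes differed over 2-fold between clones, and within the Aid-/- clones between 617 and 1710. Across the series the 9 pairs of clones differed at 1568 to 3176 probes (median 2120), so that the lowest pair between the series lay under the highest pair within the Aid-/- clones. On chromosome 8, clone 981E5 stood 0.31 above the 979B mean on the log2 scale by the median of its probes, against -0.03 in 981E1 and -0.07 in 981E4.

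All 6 clones had the defining RNAs of pluripotent cells. The 7 marker genes of such cells were measured on all 6 arrays, their summed linear level was 767 to 799 times the 75th percentile in 979B and 746 to 866 times in the Aid-/- clones, and none passed the test. The defining B cell and leukocyte markers Cd79a, Ptprc and Pax5 were well above background on none of the 6 arrays. Of the 9 defining fibroblast markers all 6 arrays read 8 and none read Lum, with summed levels of 11.5 to 17.5 in 979B and 13.4 to 26.8 in the Aid-/- clones, and none passed the test. Markers of extraembryonic endoderm summed to 0.484 to 0.773 in 979B and 0.715 to 1.13 in the Aid-/- clones, those of trophoblast to 0.455 to 0.473 and 0.546 to 0.701, those of neural cells to 2.19 to 2.27 and 2.25 to 2.99, and those of mesoderm to 0.048 to 0.078 and 0.0532 to 0.112. None of the markers of these 4 kinds passed the test. In a culture measured in bulk, fewer cells of a type and less RNA per cell cannot be told apart.

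Of all probes, 761 were called higher in the Aid-/- clones, a background share of 1.37%, and 424 lower, a share of 0.761%. By the adjusted p alone 1269 probes were higher, 2.28% of all, and 1030 lower, 1.85% of all. The clones of the 2 series did not overlap for any of the 1185 called probes. Without regard to any test, 9.71% of all probes had every Aid-/- clone above every 979B clone and 13.9% had every Aid-/- clone below. The called rises comprised 349 probes of RefSeq transcripts, 270 probes for long intergenic non-coding RNAs (lincRNAs) and 142 others, with a median of 1.45. The called falls comprised 223 probes of transcripts, 117 for lincRNAs and 84 others, with a median of -1.34. Of the transcript probes, 315 of the rises were matched to 288 genes and 207 of the falls to 187 genes. Over all probes the median difference was 0.02, and over those well above background on all 6 arrays -0.06. Among the called rises 667 of 761 were well above background on all 3 Aid-/- arrays, and among the falls 344 of 424 on all 3 of 979B. The calls were not carried equally by the Aid-/- clones, since 639 of the 761 rises stood over 2-fold above the 979B mean in 981E1, 574 in 981E4 and 725 in 981E5, and 340, 343 and 373 of the 424 falls stood over 2-fold below it.

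The number of calls depended on which clones entered. It was 433 higher and 255 lower without 979B1, 353 and 227 without 979B3, 526 and 248 without 979B4, 692 and 406 without 981E1, 679 and 354 without 981E4, and 438 and 263 without 981E5. With the 6 arrays fitted alone it was 422 and 268. Without 967B4, an array that enters through the shared variance alone, it was 1047 and 658. Probes of the same gene did not always give the same result. Of the 475 genes with a called probe, 132 had a further probe that was well above background on all 6 arrays. For 45 of these every such probe passed the adjusted p in the same direction, whereas for 61 a further probe did not pass and differed by under 1.5-fold. The cause of such disagreements was not tested, and they are given below beside the genes they touch.

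A set of probes was well above background in the Aid-/- clones and not in 979B. Where a probe was not well above background on any array of the lower series, its fold is given as a bound: the mean of the higher series against, on each array of the lower series, whichever is brighter, the probe itself or the dimmest probe well above background. The leading one was Gbp2b, an interferon-inducible GTPase of the guanylate-binding protein family. Its probe A_55_P2097219 stood at -6.90, -7.22 and -7.03 in the 979B clones, none of them well above background, and at -2.36, -2.36 and -2.46 in the Aid-/- clones. The Aid-/- clones were at least 6.18-fold higher (fitted difference 4.66 ± 0.15, adjusted p = 6.74e-07), and the other Gbp2b probe, A_51_P398766, was at least 4.76-fold higher. Gbp2b was not well above background in any clone of 967B or 979F either, so of the 12 clones only 981E1, 981E4 and 981E5 were read above background. It was on a list of genes known to vary between inbred strains, on which 1 of the 18 genes with a probe rose and 2 fell, the insulin-degrading enzyme Ide by 0.63 and the methylglyoxal-detoxifying enzyme Glo1 by 0.57. Of the 29 probes of that list 2 rose at the adjusted p (background 2.28%) and 2 fell (background 1.85%).

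In 9 other genes among the largest rises the probe was likewise well above background on no array of 979B. Cd209e, a C-type lectin, rose to -2.63, -3.31 and -1.85 in the Aid-/- clones and was at least 5.37-fold higher (adjusted p = 0.0021). Edn1, which encodes the vasoconstrictor peptide endothelin-1, went from -5.45, -5.16 and -5.18 to -1.99, -1.59 and -2.00, at least 8.86-fold higher (adjusted p = 0.00387). In both genes the lowest Aid-/- clone stood far above the highest 979B clone. Platr8, a long non-coding RNA named for its association with pluripotency, was at least 3.95-fold higher (0.0226), Gm10512 at least 3.40-fold (0.00399), the secretoglobin gene Scgb1b29 at least 3.05-fold (0.00199) and the mitochondrial glutamate carrier Slc25a18 at least 2.70-fold (0.0021). Ssxb8, of the SSX family of cancer-testis genes, was at least 2.57-fold higher (0.00439), 4833428L15Rik at least 2.52-fold (0.00544) and the sperm motility kinase gene Smok4a at least 2.25-fold (0.000116). A second Smok4a probe was measured on all 6 arrays and rose by 2.74 ± 0.35 (0.00399), while a second Scgb1b29 probe was well above background on none. Gm5458, which was measured on 1 of the 3 arrays of 979B, rose by 3.59 ± 0.45 (0.00387), and its 3 other probes, measured on all 6, by 1.47 to 2.43.

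The largest falls showed the reverse, with probes that were measured in 979B and not in the Aid-/- clones. Of the 424 falls 53 were read on all 3 arrays of 979B and on none of the Aid-/- clones, while 242 were read on all 6 arrays. Over all 55681 probes 168 were read on the 979B arrays alone in this way. Asb14, a member of the ankyrin repeat and SOCS box family, stood at -2.85, -3.06 and -3.04 in 979B and at -7.16, -7.33 and -7.09 in the Aid-/- clones, at least 5.16-fold lower (fitted difference -4.21 ± 0.22, adjusted p = 4.04e-05). Arsk, which encodes arylsulfatase K, stood at -3.50, -3.10 and -3.33 against -6.80, -7.18 and -6.94, at least 4.11-fold lower (1.75e-05). No Aid-/- clone was well above background on either probe. A second Arsk probe, A_52_P475080, was measured on all 6 arrays and did not differ past the test (-0.18 ± 0.16, 0.654), so the Arsk transcript was read in the Aid-/- clones by that probe. The calcium-binding protein gene S100z was at least 3.94-fold lower (0.00119), Ppp1r3g, a subunit that directs protein phosphatase to glycogen, at least 7.27-fold (0.00683), the dexamethasone-induced Ras-related gene Rasd1 at least 3.77-fold (0.0448), Rassf9 at least 4.53-fold (0.0464) and the fructosamine kinase gene Fn3k at least 1.95-fold (0.00732). A second Fn3k probe, measured on all 6 arrays, gave -1.23 ± 0.33 (0.0675). Rasd1 and Rassf9 varied widely within the series, Rasd1 from -1.70 to -4.52 among the 979B clones. The largest fitted fall of all, -5.96, belonged to a probe with no gene name here, A_55_P2132982, which was well above background on all 3 arrays of 979B and on none of the Aid-/- clones.

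Falls that were measured on all 6 arrays were led by C5ar2, a receptor for the complement fragment C5a. C5ar2 stood at 3.24, 2.88 and 2.55 in 979B and at -1.59, -0.52 and 0.28 in the Aid-/- clones, a fall of 11.3-fold (-3.50 ± 0.38, adjusted p = 0.0021), with a spread in the Aid-/- clones (SD 0.94) much wider than in 979B (0.35). Its second probe gave -3.22 ± 0.41 (0.00399). Npw, which encodes the neuropeptide W precursor, fell from 0.12, 0.36 and 0.27 to -1.96, -2.16 and -2.52, or 5.51-fold (-2.46 ± 0.17, adjusted p = 0.000156). The Npw clones kept close together in each series. Pdia2, a protein disulfide isomerase gene (-2.87 ± 0.60, adjusted p = 0.0295), and Kis2 (-2.69 ± 0.32, 0.00289) fell too, measured on 1 and 2 of the 3 Aid-/- arrays.

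Among lincRNA probes the rises were led by 2 that overlap on chromosome 17. A_30_P01030657, placed by the array files at mm9 chr17:22335458-22466521 on the minus strand, went from -4.30, -3.36 and -4.00 to -0.78, -0.64 and -0.70 (3.18 ± 0.24, adjusted p = 0.000327). A_30_P01031943, at mm9 chr17:22420025-22457650 on the same strand, went from -4.96, -4.08 and -4.21 to -1.47, -1.35 and -1.53 (2.97 ± 0.23, 0.000327), though it was well above background on only 2 of the 979B arrays. The regions cover the same bases in part, so these are not separate observations. The steepest fall of a lincRNA probe was that of A_30_P01031402, at mm9 chr8:124364048-124365705, which stood at -1.50, -1.63 and -1.50 in 979B and was not well above background in the Aid-/- clones, at least 14.0-fold lower (adjusted p = 0.000842). A_30_P01026341 was at least 2.78-fold higher (0.00659), A_30_P01022268 (mm9 chr4:145000941-145148666) at least 8.36-fold lower (0.00199) and A_30_P01031606 (mm9 chr4:140609589-140614789) at least 3.76-fold lower (0.00066).

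**Figure D1:**
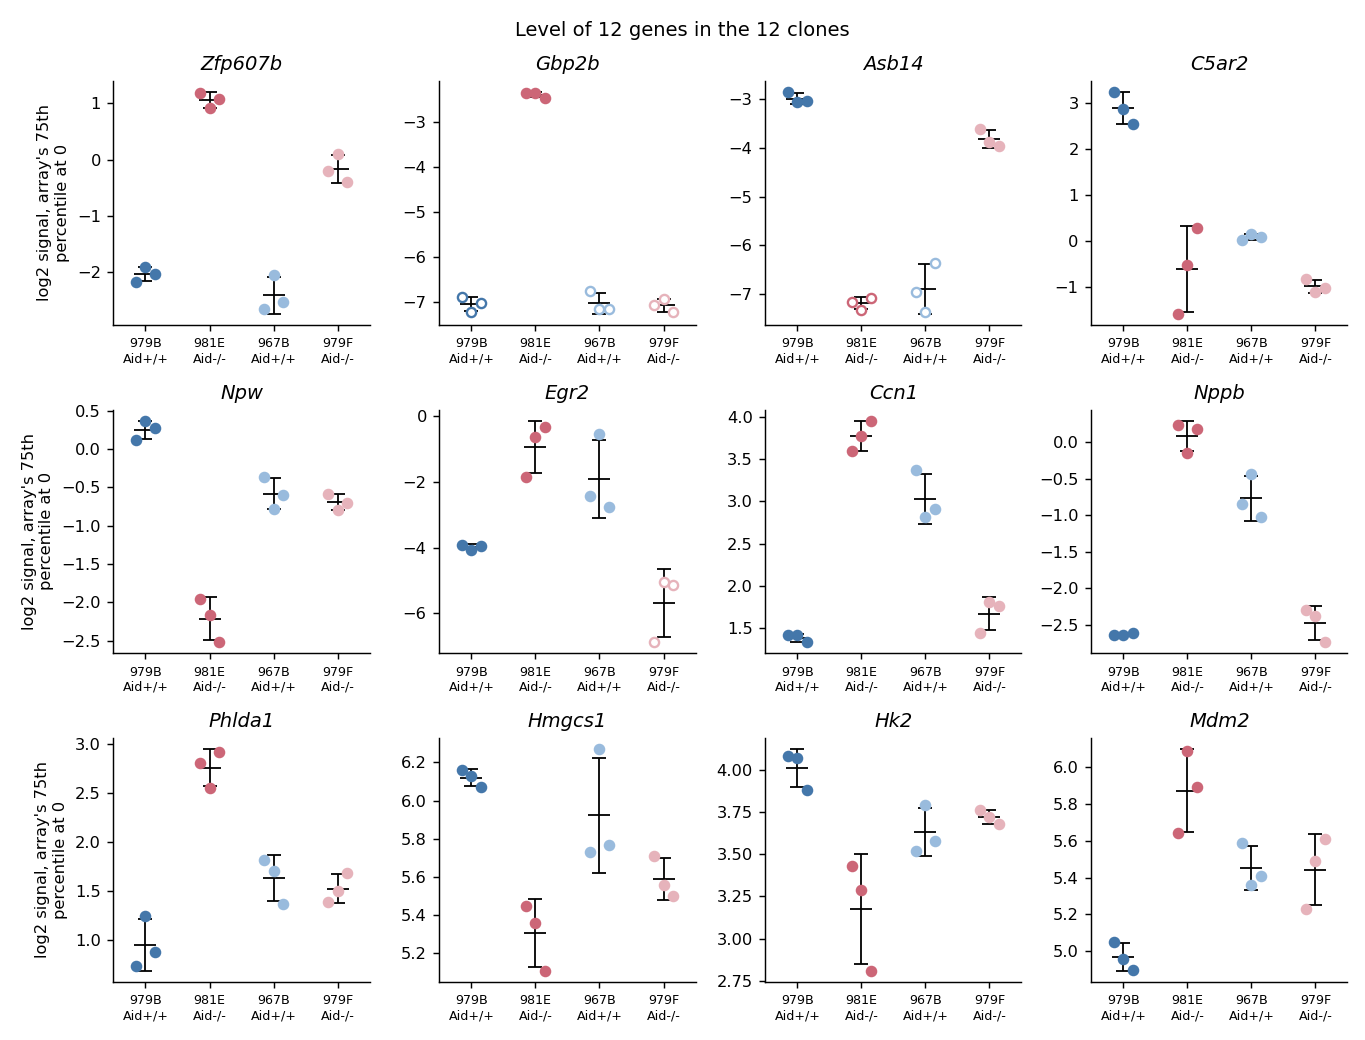
Level of 12 genes in the 12 clones, as log2 signal with each array's 75th percentile at 0, for the 4 clone series (3 clones each; open circles where no array of the series was well above background; bars show the mean ± SD). For each gene the 3 Aid-/- clones of this slide lie wholly above or wholly below the 3 clones of 979B. For Asb14, Egr2, Ccn1 and Nppb the mean of 967B lies nearer to that of the Aid-/- clones of this slide and the mean of 979F nearer to that of 979B.

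Genes that respond within minutes to growth factor signals, the immediate-early genes, and genes that restrain ERK signalling had a median difference of 0.38 over 27 probes of 25 genes, against 0.02 over all probes. Of these probes 4 rose at the adjusted p (background 2.28%), 0 fell, and 13 had every Aid-/- clone above every 979B clone (background 9.71%). The transcription factor gene Egr2 rose from -3.92, -4.06 and -3.94 to -1.84, -0.63 and -0.32, or 8.24-fold (3.04 ± 0.65, adjusted p = 0.0318). Atf3, a stress-induced transcription factor gene, rose from -3.66, -3.05 and -3.25 to -1.32, -0.74 and 0.61, or 7.15-fold (2.84 ± 0.50, 0.0145). In both the 979B clones were close together and 981E1 was the lowest Aid-/- clone, and Egr2 fell short of the test with 981E1 as the only Aid-/- clone (adjusted p = 0.411). Phlda1, a target of ERK signalling, rose by 1.81 ± 0.18 (0.00155) and Jun by 1.35 ± 0.22 (0.0107). With 1 of the 6 clones left out 2 to 4 probes of this list rose, 2 when this was 979B1, and without 967B4 7 rose, Egr1, Fosl1 and Fosb among them, and 1 fell, Spry1. With all clones Egr1 (1.22 ± 0.42, 0.15), Fosl1 (1.54, 0.139), Fosb (1.19, 0.402), Dusp5 (0.98, 0.118), Fos (0.05, 0.983), Dusp6 (0.28, 0.603) and Spry4 (0.13, 0.965) did not pass. Outside the list, Dusp8, a phosphatase that inactivates MAP kinases, rose by 3.01 ± 0.35 (0.0027), from -3.76, -3.21 and -3.28 to -1.19, -0.52 and 0.50, and by 2.44 ± 0.35 (0.00639) on its other probe. Dusp8 was chosen after its values were seen.

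The Egr2 promoter is shown because serum response factor, which drives many immediate-early genes, binds the element called the CArG box. Of 5 Egr2 promoters in RefSeq (GRCm38.p6), each a fixed window around a transcript start, 4 held the letters of a CArG box. The stretch lies on chr10:67537772-67537831, plus strand, with the box in capitals:
Egr2: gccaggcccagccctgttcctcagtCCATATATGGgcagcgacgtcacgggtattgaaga
Searched on both strands, the CArG box letters stood in 1.63% of all 32851 promoters and in those of 2 of the 16 genes of the list that have a promoter entry, Dusp5 and Egr2. The match describes letters in a window and no binding was measured.

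A few genes of connective tissue cells rose in the Aid-/- clones. Of 33 probes on a list of 30 fibroblast genes, 31 had a positive difference, as had 51.4% of all probes, the median was 0.47, 4 rose at the adjusted p (background 2.28%) and 0 fell. Their summed linear level was 156 to 191 in 979B and 208 to 292 in the Aid-/- clones, with Lum not well above background on any array. The 4 that rose were Ccn1 and Ccn2, which encode matrix-associated proteins of the CCN family, the thrombospondin gene Thbs1 and the smooth muscle actin-binding protein gene Tagln, whereas the 9 defining fibroblast markers given above had 0 past the test. Ccn1 rose from 1.41, 1.41 and 1.33 to 3.60, 3.78 and 3.96, or 5.26-fold (2.40 ± 0.17, adjusted p = 0.000188). Ccn2 rose from 2.69, 3.08 and 3.01 to 4.85, 4.93 and 5.22, or 4.21-fold (2.07 ± 0.26, 0.00399). The clones of each series lay close together for both genes. Thbs1 rose by 2.46 ± 0.43 (0.0144) and Tagln by 1.10 ± 0.26 (0.0452). With 1 of the 6 clones left out 2 or 3 fibroblast probes passed, 2 when this was 979B1 or 979B3, and without 967B4 4 passed. In 979F against 967B the list had a median of 2.21, with 3 probes higher (Col6a2, Postn and Col5a2) and 1 lower (Ccn1) at the adjusted p. Whether the higher summed fibroblast level has a part in these rises was not tested.

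Nppb, the gene of natriuretic peptide B, was chosen after its values were seen and rose from -2.64, -2.64 and -2.61 to 0.23, -0.15 and 0.18, or 6.56-fold (2.71 ± 0.18, adjusted p = 0.000148). The promoters of Ccn1 and Nppb are shown because TEAD transcription factors, which act with the Hippo pathway cofactor YAP, recognise GGAATG, and Ccn1 and Ccn2 are commonly used readouts of YAP. In the sequences below (RefSeq, GRCm38.p6, 5′ to 3′ on the strand of the gene), capitals mark GGAATG or its reverse complement CATTCC. That of Ccn1 lies on chr3:145650058-145650113, minus strand, and that of Nppb on chr4:147985770-147985825, plus strand.
Ccn1: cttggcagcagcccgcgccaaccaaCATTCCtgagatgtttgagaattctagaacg
Nppb: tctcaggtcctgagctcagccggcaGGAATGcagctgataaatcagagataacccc
These 6 letters, on either strand, stood in 14.7% of all promoters of this length, so a match is common.

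Several genes of cholesterol synthesis fell in the Aid-/- clones. Of 27 probes of 21 genes, 26 had a negative difference, while 51.4% of all probes had a positive one. The median was -0.55, 7 probes of 6 genes fell at the adjusted p (background 1.85%), 0 rose, and for 20 every Aid-/- clone lay below every 979B clone (background 13.9%). The enzymes of this pathway are switched on together by the transcription factor Srebf2 when sterols are scarce. Hmgcs1, an early enzyme of the mevalonate pathway, fell from 6.16, 6.13 and 6.07 to 5.45, 5.36 and 5.11, or 1.76-fold (-0.81 ± 0.16, adjusted p = 0.0226). Idi1, an isomerase of the isoprenoid steps, fell by 0.87 (0.0125) and Sc5d, a desaturase of the late steps, by 0.65 (0.0327). The sterol transfer protein gene Stard4 fell by 1.63 and 1.31 on its 2 probes (0.00475 and 0.0207). Most of the falls were under 2-fold, so 3 of the 7 probes were called, both of Stard4 among them. Members that did not pass included Sqle (-0.69, 0.138), Msmo1 (-0.78, 0.175), Dhcr7 (-0.65, 0.0693) and Srebf2 itself (-0.17 and 0.04). With 1 of the 6 clones left out 1 to 9 sterol probes passed, fewest without 979B3 (1), 979B1 (2), 979B4 (3) and 981E5 (3), and with the 6 arrays alone 1, while the list's median stayed between -0.63 and -0.43. In 979F against 967B the same list had a median of -0.13 and 0 probes past the test.

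The Hmgcs1 promoter is shown because the proteins of the SREBP family bind sterol regulatory elements, for which the letters TCACNCCAC were searched on both strands. The stretch lies on chr13:119690189-119690247, plus strand (RefSeq, GRCm38.p6), with the match in capitals:
Hmgcs1: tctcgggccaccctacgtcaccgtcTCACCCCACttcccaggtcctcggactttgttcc
The letters stood in 1.24% of all promoters and, among 13 sterol genes with a promoter entry, in that of Hmgcs1 alone. Other spellings of the element were not searched.

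A few glycolysis and hypoxia-response genes fell as well. Of 58 probes of 36 genes 47 had a negative difference, while 51.4% of all probes had a positive one. The median was -0.29, 5 probes fell at the adjusted p (background 1.85%) and 0 rose, and for 24 every Aid-/- clone lay below every 979B clone (background 13.9%). Hk2, a hexokinase that starts glycolysis, fell from 4.08, 4.07 and 3.88 to 3.43, 3.29 and 2.81 (-0.83 ± 0.16, adjusted p = 0.0219), and the glucose transporter gene Slc2a1 from 6.84, 6.95 and 6.76 to 6.31, 6.25 and 5.79 (-0.73 ± 0.14, 0.0209). In both the lowest clone was 981E5. The lactate dehydrogenase gene Ldha fell by 0.76 and 0.70 on 2 of its probes (0.022 and 0.0312), and 1 of 7 Gapdh probes fell by 0.57 (0.0294), the other 6 giving -0.11 to -0.45 without passing. Bnip3 (-0.82 to -0.69), Ankrd37 (-1.36, 0.085), Ddit4 (-1.27, 0.0588) and Egln3 (-1.17 and -1.16) did not pass either. The glycolysis falls depended on the fit, with 0 probes past the test for the 6 arrays alone, without 979B1 or without 979B3, 1 without 979B4, 2 without 981E1, 3 without 981E4, 5 without 981E5 and 10 without 967B4, and medians of -0.43 to -0.21. This list had a median of -0.38 in 979F against 967B, where 0 probes passed in either direction.

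Targets of p53 had a median difference of 0.50 over 23 probes of 19 genes, of which 5 rose at the adjusted p (background 2.28%), 0 fell, and 11 had every Aid-/- clone above every 979B clone (background 9.71%). Mdm2, which encodes the ubiquitin ligase that limits p53, rose from 5.05, 4.96 and 4.90 to 5.64, 6.09 and 5.89 (0.90 ± 0.15, adjusted p = 0.0114). Plk2, a polo-like kinase gene, rose from -0.40, -0.42 and -0.59 to 0.46, 1.47 and 1.07 (1.47 ± 0.28, 0.0196). The lowest Aid-/- clone was 981E1 for both. Sesn2, of the stress-induced sestrins, rose by 0.94 (0.00785), the pro-apoptotic gene Pmaip1 by 0.85 (0.0221) and Phlda3, an inhibitor of Akt, by 0.83 (0.0336). Cdkn1a, the cell cycle inhibitor p21, gave 0.61 and 0.37 (0.115 and 0.575), and Bax (-0.11, 0.767), Bbc3 (-0.17, 0.875) and Ccng1 (0.48, 0.184) did not pass. Only Plk2 of the 5 rose over 2-fold. With the 6 arrays alone 0 p53 targets passed, 2 did without 979B1, 979B3, 979B4, 981E4 or 981E5, and 6 without 981E1, with medians of 0.37 to 0.67 over the clones left out.

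**Figure D2:**
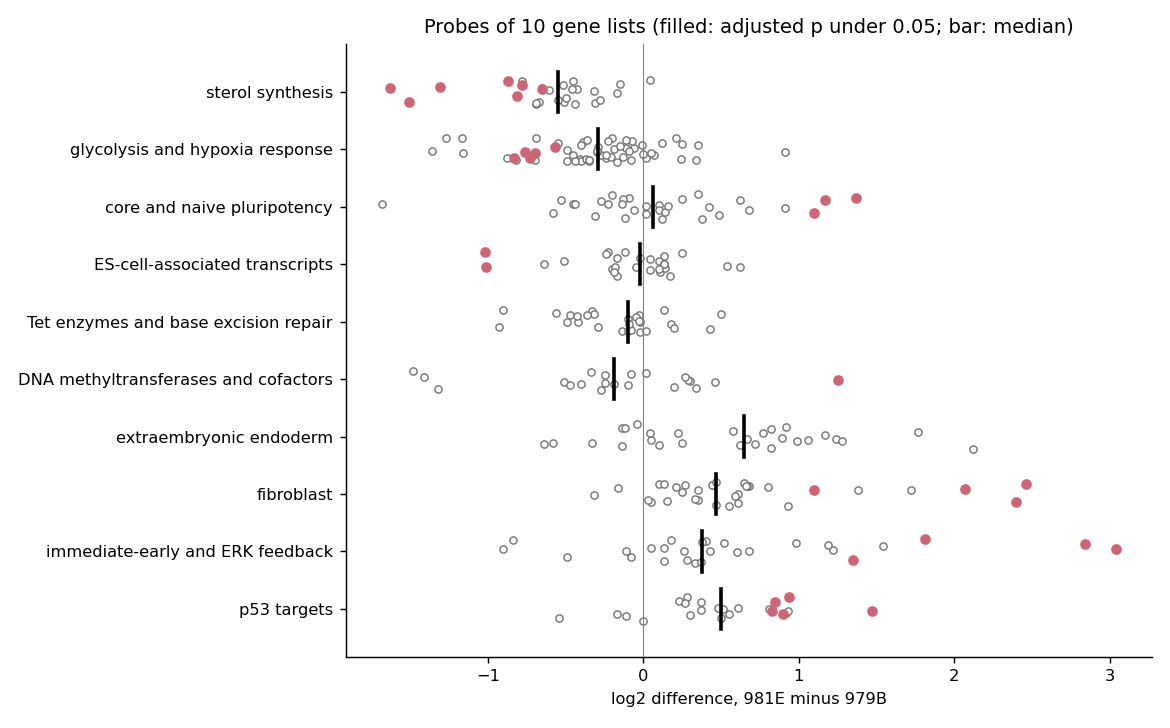
Log2 difference, Aid-/- clones minus 979B, of every probe of 10 gene lists (points; filled where the limma adjusted p over all probes was under 0.05) with the median of each list (bar). The sterol and glycolysis lists lie mostly left of 0 (medians -0.55 and -0.29), the fibroblast, immediate-early and p53 lists mostly right (0.47, 0.38 and 0.50), and the pluripotency list around 0 (0.06).

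The core genes of the pluripotency network did not pass the test. Nanog, the transcription factor gene whose reporter the cells carried, stood at -0.62, -0.93 and -0.64 in 979B and at -1.03, -0.64 and -0.08 in the Aid-/- clones, so the groups overlapped (0.14 ± 0.33, adjusted p = 0.965). The difference was -0.14 for Pou5f1 (0.846), which encodes Oct3/4, -0.31 for Sox2 (0.494), -0.64 for the ES cell Ras gene Eras (0.238), -0.05 for Dppa5a (0.965) and -0.23 for Khdc3 (0.766). Of 32 probes of 25 pluripotency genes 3 rose at the adjusted p (background 2.28%) and 0 fell (background 1.85%), with a median of 0.06. Every Aid-/- clone lay above every 979B clone for 5 of these probes (background 9.71%) and below for 5 (background 13.9%). With 1 of the 6 clones left out 1 to 2 rose, 1 when this was 979B3, and without 967B4 4 rose. Klf2, a naive state factor, rose from 4.96, 4.82 and 4.81 to 5.92, 5.75 and 6.23, or 2.14-fold (1.10 ± 0.14, 0.00455). Tbx3 rose by 1.37 ± 0.23 (0.0118) and the nuclear receptor gene Nr5a2 by 1.17 ± 0.28 (0.0496), its other probe giving 0.91 ± 0.25 (0.0738). Among 27 probes of 20 ES-cell-associated transcripts, a list that shares Nanog, Zfp42, Tcl1 and Dppa3 with the one above, both probes of Lin28b, which blocks the maturation of let-7 microRNAs, fell by 1.02 and 1.01 (0.0127 and 0.0201), and 0 rose.

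Few genes that add, remove or read DNA methylation passed the test. As background, 2.28% of all probes were higher and 1.85% lower at the adjusted p. Of 27 probes of the 20 Tet and base excision repair genes none passed the test (median -0.10, from -0.93 to 0.50), nor did any probe of the Apobec cytidine deaminase genes. Of 21 probes of 13 methyltransferase and cofactor genes only 1 passed, that of the methyl-CpG binding protein gene Mbd1, which rose from -0.34, -0.23 and -0.36 to 0.94, 0.72 and 1.15 (1.25 ± 0.17, adjusted p = 0.00475). The list ran from -1.48 to 1.25 with a median of -0.19. At its lower end stood the 3 probes of the de novo methyltransferase gene Dnmt3b, with -1.41, -1.48 and -1.32 (0.107, 0.107 and 0.119), which did not pass. Among 32 probes for H3K9 and H3K27 methylation the Polycomb subunit gene Suz12 rose by 0.50 (0.0382), while the demethylase gene Kdm4c fell by 0.77 (0.0223) and Cbx3, a heterochromatin protein gene, by 0.43 (0.0384; its other probe -0.38, 0.128). The other Mbd1 probe, A_55_P2111649, gave 0.46 ± 0.16 (0.146).

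For the lists that follow, the background shares of all probes at the adjusted p were again 2.28% higher and 1.85% lower. Of imprinted genes, those of the Dlk1-Dio3 cluster had 10 of 10 probes with a positive difference (51.4% of all probes) and a median of 0.56 but 0 past the test. Of 63 probes of 37 others, Mkrn3, a paternally expressed ring finger gene, fell by 1.00 and 0.89 (adjusted p = 0.0112 and 0.00646) and the growth inhibitor gene Cdkn1c by 0.93 (0.0348). Of 39 probes of germline and meiosis genes, both of the testis tubulin gene Tuba3a rose by 1.63 and 1.60 (0.0116 and 0.0141), and Taf7l, a germ cell transcription factor subunit gene, fell by 0.69 (0.00888). Among early lineage genes, none of the 28 probes of extraembryonic endoderm (median 0.65), the 19 of trophoblast (0.18) and the 31 of primed epiblast and mesoderm (-0.05) passed, and of 24 neural probes the 2 of the neurogenic factor gene Neurod1 fell by 1.74 and 1.48 (0.0141 and 0.0187). None of the 32 probes of 2-cell-like state genes, the 8 of the Apoe and Apoc cluster and the 11 of Y-linked genes and Xist passed. Single members of other lists passed: the actin regulator Coro1a of blood cells fell by 0.90 (0.00387), the interferon-inducible gene Ifitm1 fell by 1.00 (0.0436) and Apol9a rose, read on 2 of the 3 Aid-/- arrays and on none of 979B (0.0432), Lgals8 of the galectins rose by 0.72 (0.0447), the metallothionein gene Mt1 by 0.70 (0.0464), and of 27 probes of the amino acid stress response that of Sesn2. No probe was matched to Lgals6 for the galectin list. The probe that the study lists as Lgals6, A_52_P154741, rose as well and is given below. Of 43 Hox probes that of Hoxb8 passed (0.0417), although none of the 6 arrays read it well above background.

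The 6 clones that were not on this slide form a second pair of the same genotypes, 979F against 967B, which shares no clone with the same-slide pair. Genotype, series and slide moved together there, since 967B and 979F lay on a slide each. The series 979B and 979F share their number, and whatever goes with it enters the 2 pairs with opposite signs. In 979F against 967B, 545 probes were called (307 higher and 238 lower), 0.979% of all. Of these, 17 were called in the same direction in both pairs, which is 1.43% of the calls in the same-slide pair and 3.12% of those in 979F against 967B, and 122 were called in opposite directions, 10.3% and 22.4%. Of the 761 rises in the Aid-/- clones, 194 (25.5%) had a positive difference in 979F against 967B, where 40.2% of all probes had one, and their median there was -0.34. Of the 424 falls 167 (39.4%) were negative there as well and 257 positive, with a median of 0.17. Since only 40.2% of all probes were positive there, most were negative (median -0.05). The falls were thus negative there less often than all probes. The difference between the 2 pairs was itself called at 1825 probes, 3.28% of all, and at 753 (63.5%) of the 1185 called in the same-slide pair. That difference contains the same-slide difference by which the 1185 were picked. Their higher share is therefore no separate result.

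The probes called in both pairs in the same direction were few. Those reported here were Zfp607b, Plcl1, Apol9a, Syt10, Ttc9b, Gsx2, Hpse, the lincRNA probes A_30_P01025542, A_30_P01025622, A_30_P01021631 and A_30_P01023251, and A_52_P154741, A_55_P2196447 and A_55_P2355041, which were matched to no gene symbol here. The study lists A_52_P154741 as Lgals6 and A_55_P2196447 as 9430069I07Rik. Zfp607b, a zinc finger gene, stood at -2.16, -1.91 and -2.03 in 979B, at 1.18, 0.91 and 1.08 in the Aid-/- clones, and by the series mean at -2.41 in 967B and -0.16 in 979F. Its difference was 3.09 ± 0.18 on this slide (8.52-fold, adjusted p = 9.36e-05) and 2.24 in the other pair (0.000526), so all 6 Aid-/- clones were higher. A_52_P154741 rose by 3.34 ± 0.41 (0.00331) and by 2.58 in the other pair (0.0215). The synaptotagmin gene Syt10 rose by 1.36 and 1.37 (0.0281 and 0.0473), and Ttc9b by 1.13 and 1.48 (0.00946 and 0.00461). Gsx2, Hpse, A_30_P01025542 and A_30_P01025622 were well above background on none of the 6 arrays on this slide, and Plcl1 on 1. The other probes of Apol9a (0.24, 0.452) and Hpse (-0.39, 0.493), measured on all 6 arrays, did not pass on this slide.

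**Figure D3:**
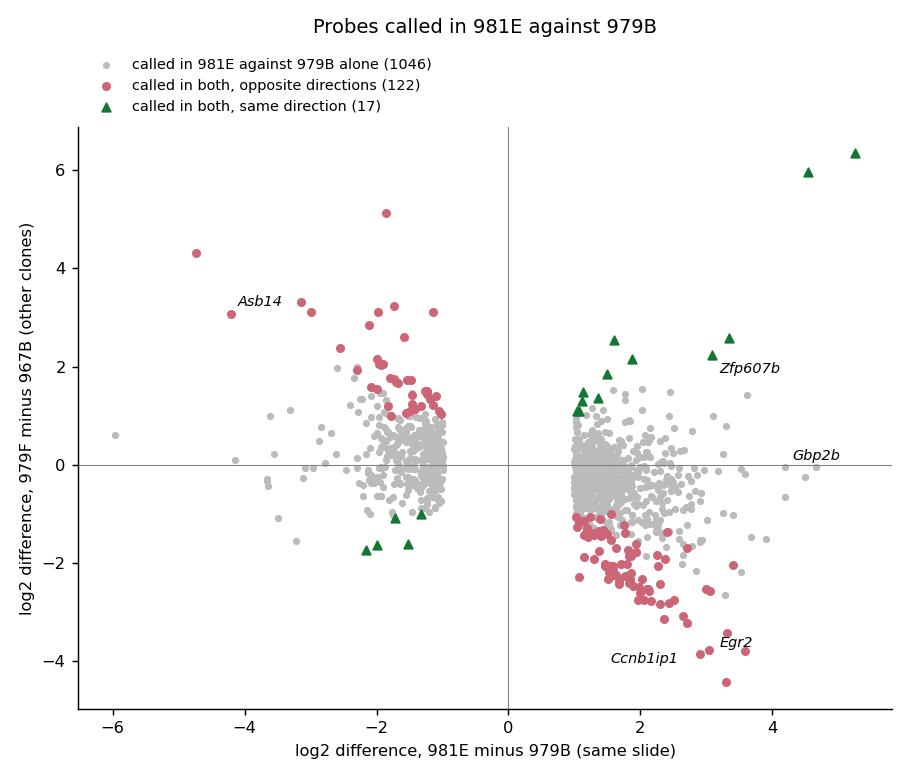
Log2 difference of the 1185 probes called in the same-slide pair (horizontal axis) and of the same probes in 979F against 967B (vertical axis), which share no clone. The 122 probes called in opposite directions (circles in red) fill the lower right and upper left, and the 17 called in the same direction (triangles) include Zfp607b on the right.

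Many of the genes that led the comparison differed the other way in the other pair. Egr2 was 3.04 higher in the Aid-/- clones than in 979B and 3.78 lower in 979F than in 967B, with a difference between the pairs of 6.82 (adjusted p = 0.00451). The pairs of values were 2.40 and -1.37 for Ccn1 (difference 3.76, 7.32e-05), 2.71 and -1.70 for Nppb (4.42, 6.18e-05), 2.07 and -1.23 for Ccn2 (3.31, 0.00193), and -4.21 and 3.08 for Asb14 (-7.29, 1.06e-05). Cldn5, a tight junction gene, had -1.97 and 2.06 (-4.03, 0.000136), and Tbx3 had 1.37 and -1.35 (2.73, 0.0024). For Egr2, Ccn1, Nppb, Ccn2, Asb14 and Tbx3 the mean of 967B was nearer to that of the Aid-/- clones of this slide and the mean of 979F nearer to that of 979B, across the genotypes. Other leading genes did not pass the test in the other pair, with -0.05 for Gbp2b (adjusted p = 0.936), -0.29 for Arsk (0.445) and -0.11 for Npw (0.831), and C5ar2 was lower there too (-1.08, 0.191) without passing. The 979B and 967B series, both Aid+/+, differed at 281 probes (0.505% of all), and 979F and the Aid-/- clones of this slide at 959 (1.72%), counts that share clones with the comparison described here.

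The called genes were unevenly spread over the chromosomes. Of 43416 probes placed on a chromosome, 1.35% were called higher and 0.746% lower. Of these, 27235 were placed through their RefSeq gene (GRCm38.p6) and 16181 were lincRNA probes, placed by the array files. On chromosome 14, 57 of 1662 probes were higher (3.43%) and 11 lower (0.662%). Of these higher and lower probes, 28 were called in the opposite direction in 979F against 967B, beside 10.3% of all 1185 calls. The pairs differed at 49 of them, beside 63.5% of all calls, a share that the choice of the calls raises. Chromosome 8, where clone 981E5 stood apart, came next with 48 of 2315 higher (2.07%), and chromosome 19 had 0 probes lower.

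**Figure D4:**
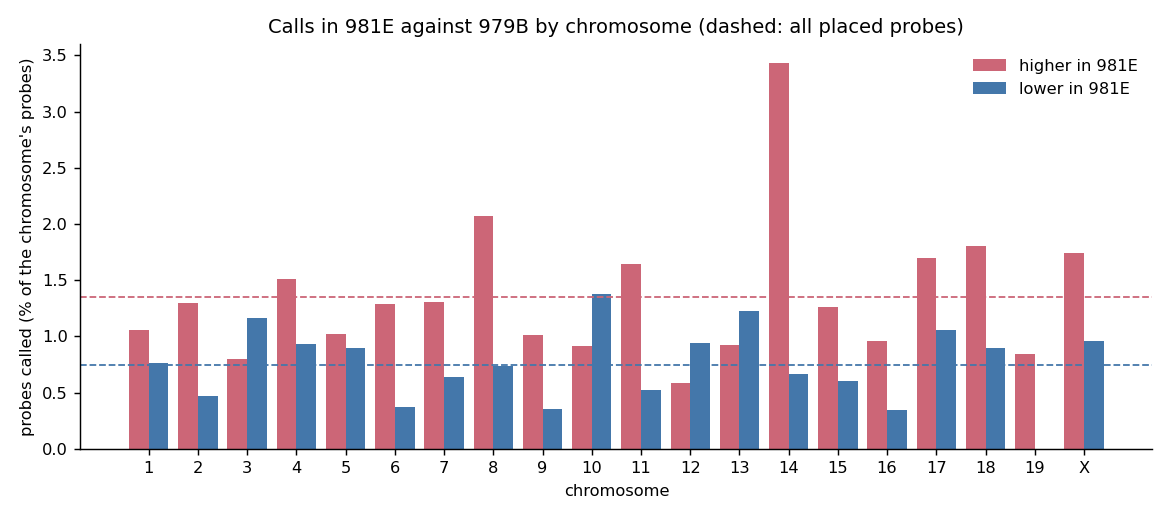
Share of the placed probes of each chromosome that were called higher (red) or lower (blue) in the Aid-/- clones, with the shares over all placed probes as dashed lines at 1.35% and 0.746%. Chromosome 14 has the highest share of rises, 3.43%, and chromosome 8 follows with 2.07%.

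Runs of neighbouring genes carried part of these calls. Counted in the order of genes with a probe, 475 of 20660 placed genes were called (2.30%), and the densest window of 50 genes held 12 called ones, on chromosome 14. They were Gm2897, D830030K20Rik, Gm10413, Gm3002, Gm5796, Gm3264, 4930555G01Rik, Gm3317, Gm10406, Gm3696, Gm5797 and Pdhb, of which 11 rose and Pdhb fell. The predicted Gm genes belong to families of near-identical copies, so a probe may read several of them and the 11 are not separate observations. Gm10413 went from -1.45, -1.68 and -1.55 in 979B to 0.78, 0.65 and 1.42 in the Aid-/- clones, or 5.71-fold (2.51 ± 0.21, adjusted p = 0.000634), and stood at 1.02 in 967B and -1.75 in 979F. Pdhb, a subunit of pyruvate dehydrogenase, went the other way, from 5.87, 6.01 and 6.07 to 4.53, 4.51 and 4.72 (-1.40 ± 0.11, 0.000452), with 4.76 in 967B and 5.73 in 979F. A second Pdhb probe did not pass (-0.22 ± 0.10, 0.292), nor did 2 other probes of D830030K20Rik (0.11 and 0.00). For all 12 genes of the run 967B was nearer to the Aid-/- clones of this slide and 979F nearer to 979B, which held for 161 of all 475 called genes (33.9%). In 979F against 967B, 11 of the 12 were called in the opposite direction, beside 44 of all 475. Elsewhere on chromosome 14 the same order held for Ccnb1ip1, a gene for meiotic crossing over, which rose from -3.03, -2.67 and -2.12 to 0.39, 0.43 and 0.10 (2.91 ± 0.23, 0.000349; -3.85 in the other pair). It held too for Fam25c (2.65 and -3.07), the endothelial matrix gene Mmrn2 (2.13 and -2.57), the homeobox gene Hesx1 (-2.00 and 1.55), Pnp2 (-1.85 and 5.13) and Asb14.

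A run on chromosome 17 had another pattern. There 8 called genes stood in a window of 50: Dnase1l2, Rab26, Npw, Gfer, Rps2, Meiob, Jpt2 and Gnptg, of which 4 rose and 4 fell. For all 8 the means of 967B and of 979F lay between those of 979B and the Aid-/- clones, against 330 of the 475 called genes (69.5%). In 979F against 967B, 0 of the 8 were called in the opposite direction. Over all 475 called genes this was 44, also a small share, so the 0 does not set this run apart from them. Gfer, a sulfhydryl oxidase of mitochondria, stood at 2.98, 2.89 and 2.90 in 979B and at 1.60, 1.54 and 1.49 in the Aid-/- clones (-1.38 ± 0.10, adjusted p = 0.000163), with 2.31 in 967B and 2.41 in 979F. Gnptg, a subunit of the enzyme that tags lysosomal proteins, stood at -0.74, -0.68 and -0.77 against 1.46, 1.47 and 1.65 (2.25 ± 0.16, 0.000163), with 0.89 and 0.45 in the other series. The 967B and 979F series, which did not differ past the test in either gene (adjusted p = 0.662 and 0.19), lay between the other series. On 1 of its 2 probes the ribosomal protein gene Rps2 rose by 1.35 ± 0.13 (0.00119) and Jpt2 by 1.01 ± 0.15 (0.00732), while the other probe gave 0.05 ± 0.13 for Rps2 (0.965) and -0.08 ± 0.13 for Jpt2 (0.895), both measured on all 6 arrays. The second Gnptg probe gave 0.60 ± 0.16 (0.0743). Meiob, a meiotic DNA-binding protein gene, fell by 2.15 ± 0.38 (0.0147). Further along the chromosome Zfp945 fell by 1.91 ± 0.12 (0.000112), while Crisp3 and Crisp1, which encode secreted cysteine-rich proteins, fell by 2.12 and 1.98 (0.00162 and 0.00326) and were 2.85 and 3.12 higher in 979F than in 967B. The genes of these runs were looked at after their values were seen, and which strain each clone carries at these places was not measured.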

How the data were processed

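RNA of 12 iPS cell clones was hybridised to 1-colour Agilent arrays, and the authors deposited the scanner's output, from which the background-subtracted, processed intensity was taken, and a table of log2 values, which differed from those computed here by a median of at most 0.00678. Log2 intensity minus the 75th percentile of each array was fitted with limma (version 3.58.1, R 4.3.3) as 4 series means over all 12 arrays, with moderated variances (8 residual degrees of freedom, 2.03 of the prior), and p-values were adjusted by the Benjamini-Hochberg method over all probes. Control spots and outlier spots (116 to 187 per array) were left out and spots of a probe averaged. No spot was saturated. The 75th percentile stood at an intensity of 418 to 501 on the 6 arrays. The number of arrays limits the precision. Of 28685 transcript accessions 27235 were matched to RefSeq (GRCm38.p6). The lincRNA regions and their build came from the array files.

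Named genes were the 12 largest rises and 12 largest falls among calls with 1 gene symbol that all 3 arrays of the higher series read well above background (1 probe a gene), the 3 largest of each direction among lincRNA probes, up to 4 members of each list past the adjusted p in each direction, a few pluripotency genes and Gapdh, and up to 6 genes called alike in both pairs of series. Some genes that met this rule are not reported here. The other genes named were chosen after their values were seen. The clones, lists and runs were chosen with earlier results of these data known. On simulated arrays (55580 probes) changes were placed only at probes well above background on all 12 arrays. Each probe had the same spread in all series, and probes varied independently. The fit recovered 80 of 100 changes of 1.5 and 98 of 100 of 3 on the log2 scale, with 6 unchanged probes called. Recovery at dim probes, or with the wider spread of the Aid-/- clones, was not tested. Background correction, scaling, filters, thresholds, clones left out, slide row and the methods' t-test were varied. Sequences were copied from RefSeq promoters.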

Additional observations from a re-analysis of the deposited data

Results flagged for a closer look

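The difference between genotypes was unlike in the 2 pairs of series at 1825 probes by the test of the difference itself (adjusted p under 0.05 and over 2-fold). The genes given here had such a difference at the adjusted p. Each value below is the log2 difference of the Aid-/- clones 981E1, 981E4 and 981E5 minus 979B, minus that of 979F minus 967B. All clones of 967B and 979F lay on slides of their own, so slide and series cannot be told apart there.

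Among signalling, matrix and stress genes the values were 6.82 for Egr2, 5.45 for Edn1, 5.00 for Atf3, 4.42 for Nppb, 4.14 for Dusp8, 3.80 for Fgfbp1, 3.76 for Ccn1, 3.31 for Ccn2, 1.92 for Phlda1, 1.81 for Pmaip1, 1.74 for Jun, 1.74 for Plk2, 1.73 for Mt1, 1.07 for Sesn2 and 0.91 for Mdm2. All of these were positive, but each value contains the same-slide difference by which the genes were picked. The shared sign is therefore no separate result. Among metabolic genes Stard4 had -1.49, Slc2a1 -0.84, Ppp1r3g -3.21 and Fn3k -3.57. Among pluripotency, chromatin and germline genes Tbx3 had 2.73, Nr5a2 2.04, Mbd1 1.76, Tuba3a 1.76, Klf2 1.28, Suz12 0.93, Taf7l -0.70, Lin28b -1.27, Mkrn3 -1.31, Neurod1 -3.48, and Ssxb8 3.77.

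On chromosome 14 the values were 7.38 for Gm5458, 6.76 for Ccnb1ip1, 5.72 for Fam25c, 5.27 for Gm10413, 4.70 for Mmrn2, 4.35 for Gm5796, -2.36 for Pdhb, -3.55 for Hesx1, -6.98 for Pnp2 and -7.29 for Asb14. On chromosome 17 they were 4.24 for Smok4a, 2.70 for Gnptg, 1.43 for Rps2, 0.88 for Jpt2, -1.49 for Gfer, -1.71 for Zfp945, -2.35 for Npw, -4.97 for Crisp3 and -5.10 for Crisp1. Second probes of Pdhb, Rps2, Jpt2 and Gnptg did not pass the test in the same-slide pair, as given above.

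Slc25a18 had 6.75, Platr8 5.41, Gm10512 5.15, Cd209e 4.85, Gbp2b 4.70 and 4833428L15Rik 4.43. The value was negative for C5ar2 (-2.42), S100z (-3.34), Kis2 (-3.35), Arsk (-3.37), Adam23 (-3.56) and Cldn5 (-4.03). Of the lincRNA probes, A_30_P01026341 had 5.53, A_30_P01030657 3.30, A_30_P01031943 3.08, A_30_P01031606 -3.80, A_30_P01022268 -4.61 and A_30_P01031402 -9.05.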

How the results depend on the processing

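No named probe that was called changed direction under the alternatives tried, which moved the number of calls. As reported, 761 probes were higher and 424 lower in the Aid-/- clones, 545 were called in 979F against 967B, 17 in the same direction in both pairs, and 1825 for the difference between the pairs. Higher and lower counts were 422 and 268 for the 6 arrays alone, 259 and 150 with normexp background correction (7 shared, 1032 for the difference), 261 and 148 at an adjusted p under 0.01 (131 in 979F against 967B, 5 shared, 570 for the difference), 1208 and 894 at a fold over 1.5 (32 shared) and 13 and 11 with the methods' t-test. Chosen after the data were seen, row 1 of the slide alone, whose lone Aid-/- clone, 981E1, is assumed to vary like the others, gave 309 and 148 (11 shared, 855 for the difference), and leaving out 967B4 gave 1047 higher, 658 lower and 2810 for the difference. With 1 of the 6 clones left out, 353 to 692 were higher, 227 to 406 lower, 351 to 630 called in 979F against 967B, 7 to 16 shared and 1077 to 1910 for the difference. Other scalings, filters, variance settings, the deposited log2 values and the omission of chromosome 8 moved no count by over 1.5 times. Clone numbers were taken as names, not pairs: clones numbered 1 and those numbered 4 deviated from their series with correlations of -0.18 and 0.06. With the clone number as a replicate block 2 probes were higher, 2 lower, 0 called in 979F against 967B, 0 shared and 42 for the difference. Of 111 named probes that were called, 81 were called with the 6 arrays alone, 76 with normexp, 9 with the methods' t-test, 3 with the replicate block and 78 to 94 with 1 of the 6 clones left out. For dim probes the background correction sets the size of a difference, Smok4a giving 3.25 as reported and 0.49 with normexp.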
